A study of Homo sapiens with 6 samples.

Results

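The mitochondrially encoded transcripts are the RNAs made from the circular genome inside mitochondria. They were taken as the genes whose name in the deposited tables starts with mt-. There were 37 such genes among 53492, and they were also the 37 genes placed on the mitochondrial chromosome. Of the 37, 13 are messenger RNAs, 2 are ribosomal RNAs and 22 are transfer RNAs. Values were compared between 3 libraries labelled GFP, from cells given the vector pCS2-eGFP-N, and 3 labelled GFP-CCNB1IP1, from cells given pCS2-eGFP-CCNB1IP1. All 6 came from cells that the labels call SH-SY5Y, a human neuroblastoma line, and from RNA captured by its poly(A) tail. CCNB1IP1, also called HEI10, is a ubiquitin ligase of meiotic recombination. The labels give neither the share of cells that took up the vector nor the time after transfection, and nothing in them says that replicates came from separate cultures. The p-values therefore measure only how far these samples spread, and that spread may be technical.

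The mitochondrial genome is read from promoters on each strand into long RNAs, which are cut into single transcripts, largely at the transfer RNAs that lie between the other genes. Its 13 messengers encode core subunits of the respiratory chain and of ATP synthase, and its ribosomal and transfer RNAs serve their translation inside the organelle. The polymerase, the processing enzymes and all other subunits come from nuclear genes. Most mitochondrial messengers carry short poly(A) tails added after cutting, the ribosomal RNAs carry very short ones, and mature transfer RNAs carry none. In poly(A)-captured RNA the 3 classes are therefore not measured on an equal footing, and single messengers, mt-Nd6 among them, may not be either.

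The tables name mouse genes: all 53492 identifiers have the mouse prefix, and 0 matched a table of human genes. Every value below is thus that of a mouse gene, although the labels name human cells. Whether the tables were made from the labelled samples was not tested, so each group below is a set of libraries labelled GFP or GFP-CCNB1IP1. Of 14 markers of noradrenergic neuroblastoma, 12 were at 1 FPKM or more in every library, Hand2 and Chga among them, and Dbh and Ddc were not. Their summed level was 1191 to 1275 FPKM with GFP and 1016 to 1100 with GFP-CCNB1IP1. Markers of fibroblasts, glia, blood, epithelium and endothelium summed to at most 4.68 FPKM per list, with Col3a1, Lum, Epcam and Krt18 at 0 throughout. The mouse gene Ccnb1ip1 was at 7.36e-08 to 0.191 FPKM, so it does not check the labels, and the introduced sequence was not analysed here. Read totals are not given. Relative depth, estimated over 2245 genes from the width of their deposited intervals, was 0.950 to 1.06 of the GFP mean in 5 libraries and 0.743 in GFP-CCNB1IP1 replicate 2.

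Mitochondrially encoded RNA made up 15 to 18% of the summed FPKM of each library, and no difference between the groups was detected. FPKM are fragments scaled to transcript length and to the mapped fragments of the library, so a share of summed FPKM is not a share of reads. Nor is it a share of transcript copies, since mt-Atp8 and mt-Atp6, known to share a messenger, differed 3.50 to 4.79 fold. The share was 16.1, 17.1 and 16.7% for replicates 1 to 3 with GFP, and 14.96, 17.0 and 18.3% for those with GFP-CCNB1IP1. Both the lowest and the highest library were GFP-CCNB1IP1 libraries, and the GFP libraries lay between them. The means were 16.65% ± 0.498 and 16.75% ± 1.67 (SD, n = 3), a difference of 0.0994 percentage points (exact two-sided permutation test, p = 1.0). With 3 libraries against 3 that test cannot give a p below 0.1. With mt-Atp8, the highest mitochondrial gene, left out of the mitochondrial and library sums, the share was 10.88 to 12.68%. In bulk RNA, fewer cells of a type and less RNA per cell cannot be told apart.

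Messengers accounted for nearly all of the mitochondrial share. They held 16.55% ± 0.489 of summed FPKM with GFP and 16.64% ± 1.67 with GFP-CCNB1IP1 (exact two-sided permutation test, p = 1.0). The pair of ribosomal RNAs held 0.0992% ± 0.00958 and 0.104% ± 0.00717 (exact two-sided permutation test, p = 0.5). All 22 transfer RNAs were listed at 0 in every library.

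**Figure D1:**
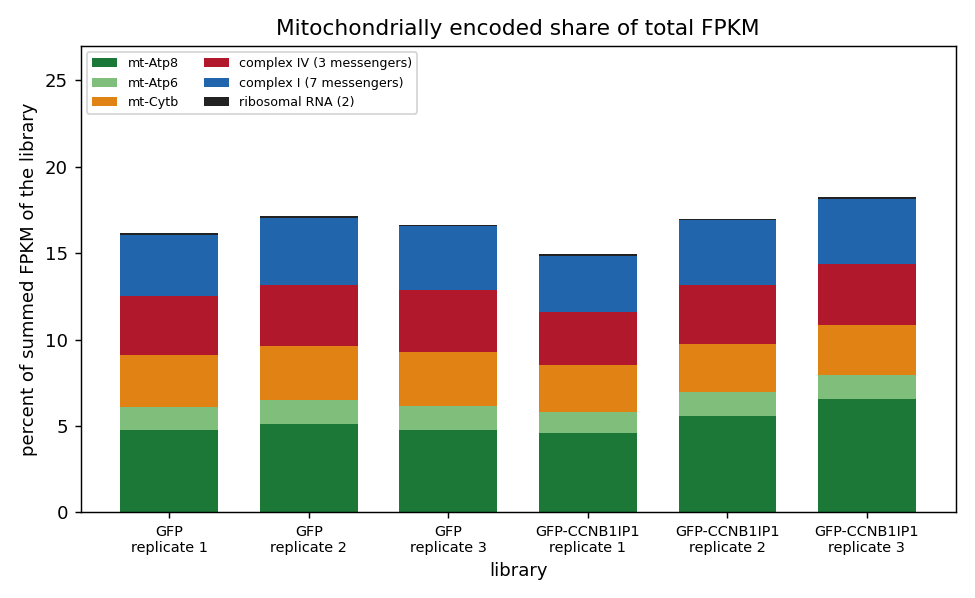
Percent of each library's summed FPKM held by mitochondrially encoded genes, stacked by gene or complex, for 3 GFP and 3 GFP-CCNB1IP1 libraries. The totals run from 14.96 to 18.3%, with the lowest in GFP-CCNB1IP1 replicate 1 and the highest in GFP-CCNB1IP1 replicate 3, and mt-Atp8 is the thickest layer in 6 of 6 libraries.

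The listing of transfer RNAs at 0 was shared with every other very short gene in these tables. Their loci span 59 to 75 bases. Among nuclear loci of 150 bases or less, 0 of 4490 were above 0 in any library, and the shortest locus of any kind above 0 was 156 bases long. The values thus carry no information on transfer RNA levels, and no comparison was made for this class. Of 2145 nuclear loci over 150 but under 300 bases, 14.7% were above 0, against 56.6% of 46820 loci from 300 bases upward. This bears on mt-Atp8, at 204 bases, and mt-Nd4l, at 297 bases, the shortest of the messengers.

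Complex I, the NADH dehydrogenase that feeds electrons into the chain, has 7 mitochondrial messengers, and none passed the test. mt-Nd1 (chromosome M, 2751 to 3707 in the tables' coordinates, counted from 1, with the build not stated in the sources used here) and mt-Nd2 (3914 to 4951) encode subunits of its membrane arm. mt-Nd1 had 2193, 2308 and 2308 FPKM for replicates 1 to 3 with GFP and 2047, 2386 and 2509 FPKM for those with GFP-CCNB1IP1. mt-Nd2 had 2797, 3065 and 3079 FPKM, then 2550, 3141 and 3352. For both genes the GFP-CCNB1IP1 libraries held the lowest and the highest value, and their log2 fold changes were 0.02 (SE 0.076) and 0.01 (SE 0.099).

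mt-Nd4 (10167 to 11544) and mt-Nd4l (9877 to 10173) overlap by 7 bases and are known to share a messenger. mt-Nd4 had 3237, 3520 and 3330 FPKM with GFP and 2920, 3376 and 3524 with GFP-CCNB1IP1. mt-Nd4l had 4347, 4754 and 4208 FPKM, then 4115, 4223 and 4278. The groups overlapped for both. Although the pair shares a messenger, mt-Nd4l stood 1.21 to 1.41 times above mt-Nd4 in every library, a ratio of 1.32 ± 0.0482 with GFP and 1.29 ± 0.104 with GFP-CCNB1IP1 (SD, n = 3; exact two-sided permutation test, p = 0.8).

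mt-Nd5 (11742 to 13565) and mt-Nd6 (13552 to 14070) overlap by 14 bases and are known to lie on opposite strands. mt-Nd5 had 1538, 1931 and 1633 FPKM with GFP and 1415, 1612 and 1647 with GFP-CCNB1IP1. mt-Nd6, the single messenger of the other strand, had 1239, 1659 and 1375 FPKM, then 1202, 1461 and 1488. GFP replicate 2 was the highest library for both genes. Whether counting used strand is not given in the sources used here, so RNA antisense to mt-Nd6 may be part of its value. The ratio of mt-Nd6 to the sum of the other 12 messengers was 1.84% ± 0.205 and 1.77% ± 0.0876 (exact two-sided permutation test, p = 0.7).

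mt-Nd3 (9459 to 9806), a small membrane-arm subunit, had 1272, 1315 and 1373 FPKM with GFP and 1194, 1531 and 1632 with GFP-CCNB1IP1. GFP-CCNB1IP1 replicates 2 and 3 lay above all GFP libraries and replicate 1 lay below them. Its log2 fold change was the highest of the 7, at 0.13 (SE 0.108; limma, adjusted p = 0.703), and that of mt-Nd5 the lowest, at -0.12 (SE 0.093; limma, adjusted p = 0.667). Summed over complex I, the messengers had 17494 ± 978 FPKM with GFP and 17201 ± 1562 with GFP-CCNB1IP1.

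Complex III, which passes electrons from ubiquinol to cytochrome c, has a single mitochondrial messenger, mt-Cytb (14145 to 15288), for its cytochrome b subunit. It had 14180, 15031 and 14783 FPKM with GFP and 12985, 13197 and 14187 with GFP-CCNB1IP1. The groups met only at their edges, since GFP-CCNB1IP1 replicate 3 exceeded GFP replicate 1 by a few FPKM. The means were 14665 ± 438 and 13456 ± 641 FPKM (SD, n = 3). This was the smallest p of any mitochondrial gene, and the log2 fold change was -0.12 (SE 0.055; limma, unadjusted p = 0.055, adjusted p = 0.453), and it did not pass.

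Complex IV, the cytochrome c oxidase that reduces oxygen, has its 3 catalytic-core subunits encoded by mt-Co1, mt-Co2 and mt-Co3. All 3 log2 fold changes were below 0, except that of mt-Co2 without GFP-CCNB1IP1 replicate 1 (0.0365), and none passed the test. mt-Co1 (5328 to 6872) had 6376, 6907 and 6524 FPKM with GFP and 5979, 6217 and 6589 with GFP-CCNB1IP1. mt-Co2 (7013 to 7696) had 6241, 6505 and 6615 FPKM, then 5761, 6312 and 6936. For mt-Co2 the GFP-CCNB1IP1 libraries spanned the whole GFP range. mt-Co3 (8607 to 9390) had 3435, 3727 and 3770 FPKM, then 3074, 3334 and 3631. Its log2 fold change was -0.12 (SE 0.070; limma, adjusted p = 0.545), next to -0.08 (SE 0.056) for mt-Co1 and -0.03 (SE 0.071) for mt-Co2.

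ATP synthase, which makes ATP from the proton gradient, has 2 mitochondrial messengers, whose log2 fold changes lay on opposite sides of 0, though not after quantile normalization (exactly 0 for mt-Atp8 and 0.0139 for mt-Atp6) or without GFP-CCNB1IP1 replicate 1 (0.323 and 0.0259). mt-Atp8 (7766 to 7969) and mt-Atp6 (7927 to 8607) overlap by 43 bases and are known to share a messenger. mt-Atp8 had 22443, 24570.3 and 22624 FPKM with GFP and 21809, 26365 and 31926 with GFP-CCNB1IP1. GFP-CCNB1IP1 replicate 3 was far above the rest and replicate 1 was below all GFP libraries. The means were 23212 ± 1180 and 26700.1 ± 5067 FPKM, and the log2 fold change was 0.19 (SE 0.126; limma, adjusted p = 0.625). Without GFP-CCNB1IP1 replicate 3 the log2 fold change of mt-Atp8 was 0.0481. mt-Atp6 had 6186, 6565 and 6462 FPKM, then 5819, 6378 and 6662, and the log2 fold change was -0.03 (SE 0.061; limma, adjusted p = 0.895).

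The ratio of mt-Atp8 to mt-Atp6 was 3.63, 3.74 and 3.50 with GFP and 3.75, 4.13 and 4.79 with GFP-CCNB1IP1. All GFP-CCNB1IP1 values were the higher ones, by a margin in the third digit for replicate 1. The exact two-sided permutation test gave p = 0.1, the smallest that 3 against 3 allows, and p = 0.4 when adjusted by the Benjamini-Hochberg method over the 4 pairs compared. How fragments within the 43 shared bases were divided between the genes is not given in the sources used here.

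The ribosomal RNAs form the small (mt-Rnr1, 70 to 1024) and large (mt-Rnr2, 1094 to 2675) subunits of the mitochondrial ribosome. mt-Rnr1 had 139.0, 182 and 163 FPKM with GFP and 181, 177 and 177 with GFP-CCNB1IP1. The GFP libraries spread widely and enclosed the other group. mt-Rnr2 had 276, 329 and 323 FPKM, then 278, 330.1 and 354. Neither passed, with log2 fold changes of 0.15 (SE 0.089; limma, adjusted p = 0.568) and 0.05 (SE 0.1003; limma, adjusted p = 0.891).

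Both ribosomal RNAs lie upstream of mt-Nd1, and both stood well below it here. Summed, they came to 0.550, 0.625 and 0.622% of the messengers' FPKM with GFP and 0.647, 0.638 and 0.601% with GFP-CCNB1IP1. The groups overlapped, and the difference of mean log2 ratios was 0.07 (exact two-sided permutation test, p = 0.4). With mt-Atp8 out of the sum it was 0.152, with geometric means 0.125 and with FPKM times locus length 0.1265. On each of these scales the GFP-CCNB1IP1 libraries all lay above the GFP libraries (exact two-sided permutation test, p = 0.1, the smallest possible, not adjusted). The groups did not overlap for 17.6% of all genes in FPKM. The scales without mt-Atp8 and with locus length were chosen after seeing the data. Since capture was by poly(A) tail, these are levels in captured RNA. mt-Rnr2 was 1.54 to 2.00 times mt-Rnr1 (exact two-sided permutation test between the groups, p = 0.7).

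**Figure D2:**
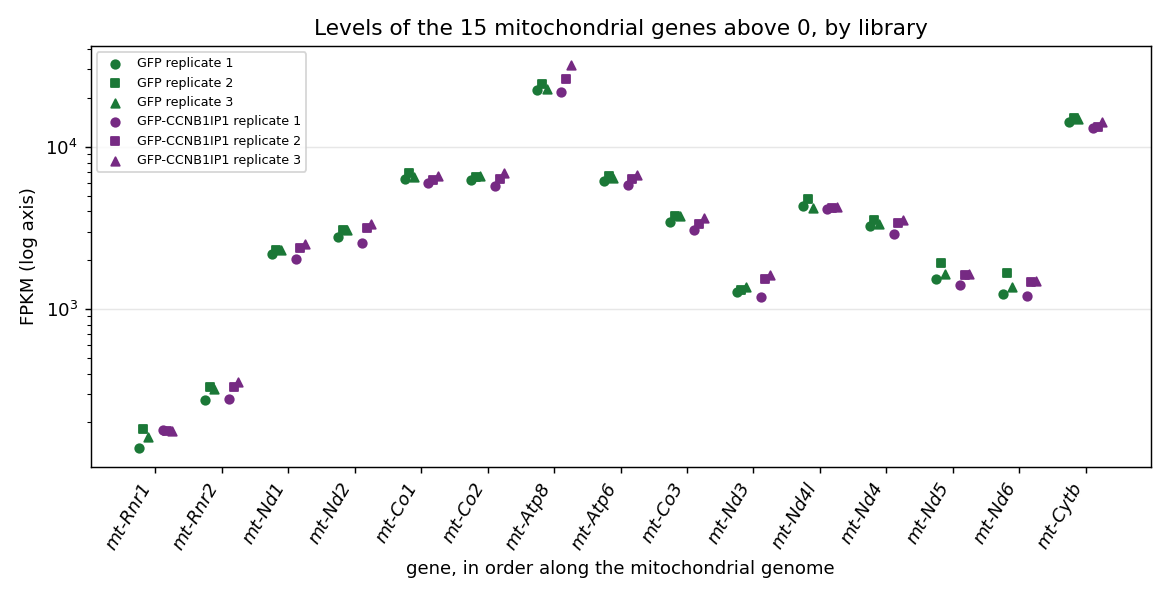
FPKM on a log axis for the 15 mitochondrial genes above 0, in order along the mitochondrial genome, with 1 point for each of the 3 GFP and 3 GFP-CCNB1IP1 libraries. mt-Atp8 and mt-Cytb lead in all 6 libraries, both ribosomal RNAs are lowest, and GFP-CCNB1IP1 replicate 1 is the lowest point for each of the 13 messengers.

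Messenger levels per length spanned from a mean of 1386 FPKM for mt-Nd3 to 24956 for mt-Atp8 over the 6 libraries. mt-Atp8 ranked 1 and mt-Cytb ranked 2 among all genes in each library, and 10 or 11 of the 20 highest genes of a library were mitochondrial. All 13 messengers were among the 50 highest genes. After mt-Cytb came mt-Co1, mt-Co2 and mt-Atp6, whose neighbours in the order could not be separated: mt-Co1 exceeded mt-Co2 in 3 of 6 libraries, and mt-Co2 exceeded mt-Atp6 in 3 of 6. mt-Nd4l, mt-Co3, mt-Nd4, mt-Nd2 and mt-Nd1 followed. Of these, mt-Co3 exceeded mt-Nd4 in 5 of 6 libraries with overlapping ranges, and mt-Nd2 exceeded mt-Nd1 in 6 of 6 without overlap. At the lower end, mt-Nd5 exceeded mt-Nd6 in 6 of 6 libraries with overlapping ranges, and mt-Nd6 exceeded mt-Nd3 in 3 of 6. mt-Nd3 in turn was 3.996 to 4.638 times mt-Rnr2.

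This order depends on how length is taken into account. Weighted by FPKM alone, mt-Atp8 held 29.0 to 36.1% of the 13 messengers. Weighted by FPKM times the length of the locus, which approximates fragments, it held 7.84 to 10.6%, and mt-Cytb led with 26.4 to 28.7%, followed by mt-Co1 with 16.6 to 17.6%. On that scale all mitochondrial genes together came to an estimated 5.29 to 6.21% of mapped fragments, against 14.96 to 18.3% of summed FPKM. Short genes gain on the FPKM scale in a way the deposited intervals show. For the 5 genes whose loci overlap no neighbour, the fragments implied per FPKM and base were fewer the shorter the gene. Relative to mt-Rnr2, at 1582 bases, they were 95.3% for mt-Cytb, 93.9% for mt-Rnr1 (955 bases), 83.1% for mt-Co2 (684 bases) and 51.8% for mt-Nd3 (348 bases). Among these 5 genes, the fragment shares of the shorter ones are therefore upper estimates. No such comparison was made for mt-Atp8, whose locus overlaps a neighbour and whose deposited interval did not narrow with level.

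**Figure D3:**
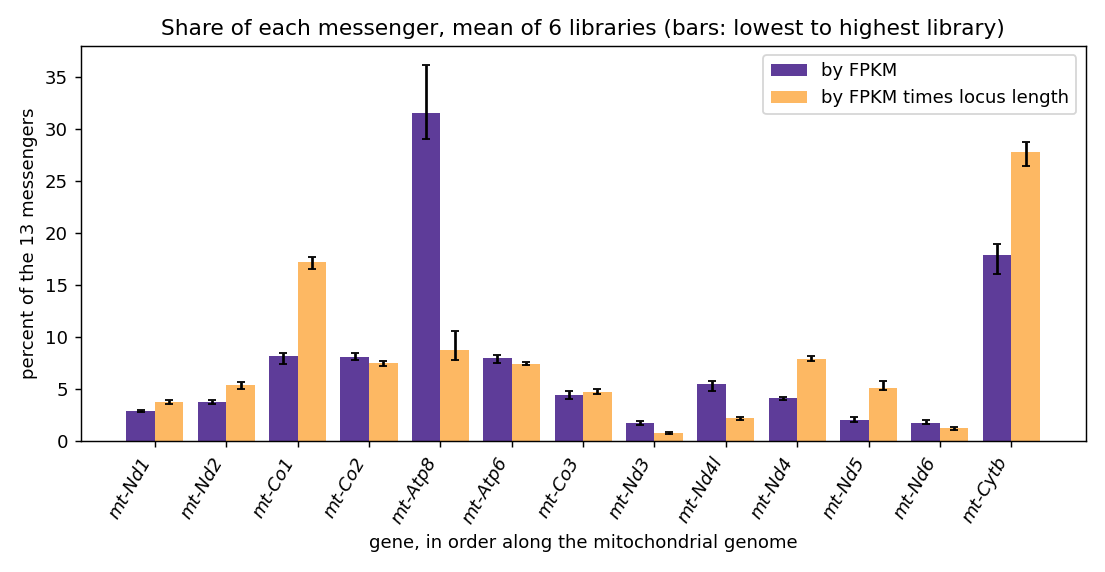
Percent of the 13 messengers held by each, by FPKM and by FPKM times locus length; bars are means of 6 libraries and lines run from the lowest to the highest library. mt-Atp8 leads by FPKM, with 29.0 to 36.1%, and mt-Cytb leads by FPKM times length, with 26.4 to 28.7%.

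Across all mitochondrial genes, the comparison of GFP-CCNB1IP1 with GFP libraries called none. Of the 37 genes 15 passed the filter of a mean of at least 1 FPKM, and 0 of the 15 passed limma at an adjusted p under 0.05. Over all 13231 genes tested, 1 gene or 0.00756% was called. At an unadjusted p under 0.05 there were 0 of the 15, against 11.4% of all genes. The groups overlapped for each of the 15, against 17.6% of all genes whose groups did not overlap. There were 6 log2 fold changes above 0 and 9 below, where 51.4% of all genes were above 0 and 48.6% below. Their median was -0.03, beside 0.004 for all genes tested.

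The intervals set how large a difference these libraries leave possible. With the data as deposited and a pseudocount of 1, the 95% intervals of the 15 genes all included 0 and reached at the outermost from a fold of 0.791 for mt-Nd5 to 1.39 for mt-Atp8. mt-Cytb had the interval from 0.839 to 1.00, and mt-Co1 from 0.867 to 1.04. The interval of mt-Cytb excluded 0 under 6 alternatives that kept all libraries, among them TPM (log2 fold change -0.14, limma, adjusted p = 0.369) and a pseudocount of 0.1 (-0.12, limma, adjusted p = 0.421), and it was not called under any. The deposited interval of mt-Cytb implied about 210000 to 336800 fragments, lowest to highest library, while its coefficient of variation between replicates was 2.98% with GFP and 4.77% with GFP-CCNB1IP1. For mt-Rnr1 the relative standard error implied by the interval was 1.73 to 2.08%, above its coefficient of variation of 1.165% with GFP-CCNB1IP1 and below that of 13.4% with GFP.

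**Figure D4:**
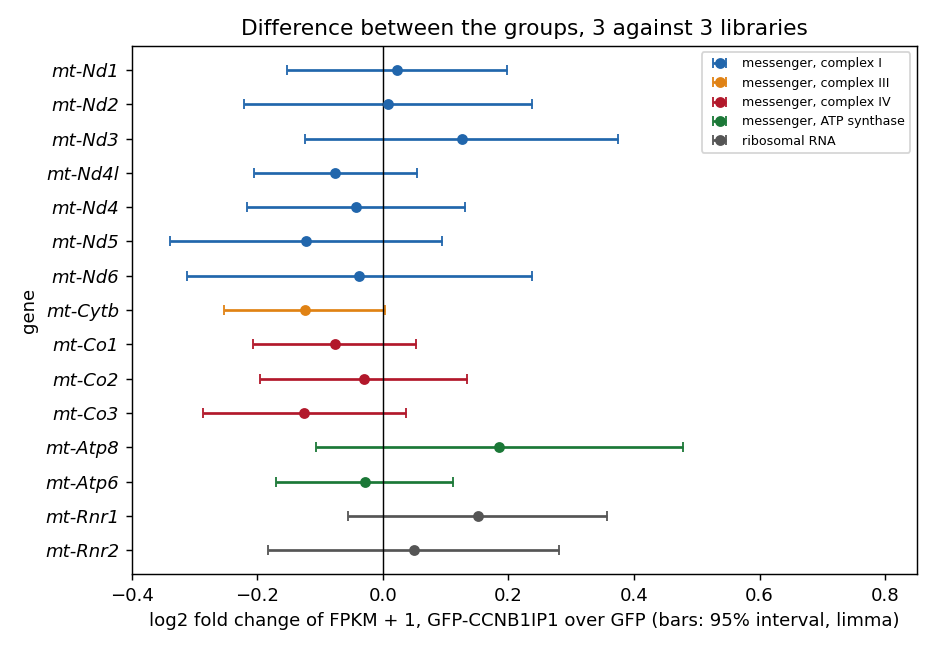
Log2 fold change of FPKM + 1, GFP-CCNB1IP1 over GFP, for the 15 mitochondrial genes above 0, with 95% intervals from limma and colours by complex. All intervals include 0, and mt-Cytb, at -0.12, comes closest to excluding it.

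Within each group the same libraries tended to be lowest and highest from messenger to messenger. GFP-CCNB1IP1 replicate 1 was the lowest of the 6 libraries for 13 of 13 messengers, and the highest was GFP-CCNB1IP1 replicate 3 for 7, GFP replicate 2 for 5 and GFP replicate 3 for 1. Within the GFP group, replicate 1 was the lowest for 12 of 13 and replicate 2 the highest for 9. The coefficient of variation was larger in the GFP-CCNB1IP1 group for 10 of 13 messengers, with medians of 9.28% against 4.29%. Since messengers tended to rise and fall together, these are not 13 separate observations, and the share over all genes is not given here. Relative depth was 0.989 in GFP-CCNB1IP1 replicate 1 and 1.04 in replicate 3. The summed FPKM of 69 nuclear genes of respiratory chain and ATP synthase subunits was highest in GFP-CCNB1IP1 replicate 1, at 8690.0, and 7870 to 8415 in the other 5 libraries. The part of these quantities in the spread was not tested. Without GFP-CCNB1IP1 replicate 1, mt-Nd3 (log2 fold change 0.26), mt-Atp8 (0.32) and mt-Nd1 (0.11) had an unadjusted p under 0.05, and none was called by limma. Without replicate 3 of that group these were mt-Cytb (-0.16) and mt-Co3 (-0.19), and without GFP replicate 2 mt-Rnr1 (0.24). Over all genes, 1238 of 13241 reached that p without GFP-CCNB1IP1 replicate 1 and 1235 of 13255 without replicate 3 of that group. Without GFP replicate 2 the count was 1659 of 13240.

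A scale-free view takes each messenger as a percent of the summed messengers of its library. On this scale mt-Atp8 was 29.57% ± 0.539 with GFP and 33.35% ± 2.68 with GFP-CCNB1IP1, and mt-Cytb was 18.69% ± 0.296 and 16.99% ± 1.18 (SD, n = 3). The groups did not overlap for 5 of 13 messengers, with mt-Atp8 higher and mt-Cytb, mt-Co3, mt-Nd4 and mt-Nd5 lower. Of all genes put on this scale 6.5% did not overlap, and 17.6% in plain FPKM. The 6.5% is not a like background, since the other genes are divided by a sum they are not part of. The messengers' percentages share a sum, so a high mt-Atp8 lowers the others. Each of the 5 had the smallest possible p of 0.1 in the exact two-sided permutation test, and 0.26 when adjusted by the Benjamini-Hochberg method over the 13.

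With mt-Atp8 taken out of the sum, the groups did not overlap for 3 of the other 12. Of all genes on that scale 13.1% did not overlap, a background unlike in the same way. mt-Co3 was still lower, at 6.59% ± 0.177 with GFP and 6.32% ± 0.0952 with GFP-CCNB1IP1. mt-Atp6 was now higher, at 11.59% ± 0.115 and 11.89% ± 0.0986, and so was mt-Nd1, at 4.11% ± 0.0698 and 4.37% ± 0.171. mt-Cytb, mt-Nd4 and mt-Nd5 overlapped between the groups. Of the 5 messengers without overlap above, only mt-Co3 among the 4 that remained in the sum was still without overlap.

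Relative to the nuclear genes of the same complexes, no difference in mitochondrial messengers was detected between the groups. The ratio of their summed FPKM to that of the 69 nuclear subunit genes was 8.97, 9.94 and 9.52 with GFP and 8.16, 10.1 and 10.7 with GFP-CCNB1IP1. The GFP-CCNB1IP1 libraries spanned the GFP range, and the difference of mean log2 ratios was 0.02 (exact two-sided permutation test, p = 0.9). Among the 69 nuclear genes, 46 had a log2 fold change above 0 and 23 below, with a median of 0.02 and 0 called. Of all genes tested, 51.4% were above 0. At an unadjusted p under 0.05 there were 2 of the 69 (2.9%), against 11.4% of all genes. The groups did not overlap for 5 of the 69 (7.25%), against 17.6% of all genes.

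The nuclear genes that copy, transcribe and process the mitochondrial genome were read from 5 lists with 80 genes, of which 76 could be tested. None was called. At an unadjusted p under 0.05 there were 6, or 7.89%, with 5 higher and 1 lower, where 5.59% of all genes were higher and 5.77% lower at that p, and the groups did not overlap for 12, or 15.8%. Over all genes tested the shares were 11.4% and 17.6%. By list, the share at an unadjusted p under 0.05 ran from 0 of 11 for transcription to 16.7% for DNA replication, and the share without overlap from 5.26% for stability to 25% (2 of 8) for biogenesis regulators. The median log2 fold change of the 76 was 0.04.

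The transcription list holds the polymerase, its factors and the terminator family. Of its 11 genes 9 had a log2 fold change above 0 and 2 below, with a median of 0.15, and 0 reached an unadjusted p under 0.05. Polrmt, the mitochondrial RNA polymerase, had 18.5 ± 1.10 FPKM with GFP and 16.5 ± 1.94 with GFP-CCNB1IP1. Tfam, which bends and packages mitochondrial DNA and helps to start transcription, had 21.5 ± 1.01 and 24.3 ± 2.55 FPKM. The groups overlapped for both. Tfb1m, a ribosomal RNA methyltransferase, had 5.17 ± 0.364 and 5.88 ± 0.206 FPKM, and Mterf1b, whose reads may be shared with its close copy Mterf1a, had 0.956 ± 0.0602 and 1.33 ± 0.157. Neither group pair overlapped, and neither gene passed (limma, adjusted p = 0.505 and 0.478). Mterf1b averaged under 1 FPKM with GFP, so it met the filter only through the GFP-CCNB1IP1 libraries. In this list the groups did not overlap for 2 of 11 genes (18.2%), against 17.6% of all genes.

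RNA processing and stability genes showed little more. Processing and modification had 14 of 20 above 0 with a median of 0.03, and stability and polyadenylation had 11 of 19 with a median of 0.06. Slirp, which binds LRPPRC to protect mitochondrial messengers, had 20.8, 23.4 and 23.1 FPKM with GFP and 28.3, 26.9 and 25.04 with GFP-CCNB1IP1. The groups did not overlap, and the log2 fold change was 0.24 (SE 0.070; limma, adjusted p = 0.292). Its partner Lrpprc had 19.9 ± 1.89 and 18.5 ± 0.662 FPKM and overlapped between the groups. Mtpap, the mitochondrial poly(A) polymerase, had 9.18 ± 0.420 and 10.2 ± 0.716 FPKM, and Fastkd3 had 6.98 ± 1.79 and 5.24 ± 0.994. Among the processing genes, Rpusd4, a pseudouridine synthase, had 10.1 ± 0.113 and 11.4 ± 0.552 FPKM (limma, adjusted p = 0.404). Trnt1, which adds the CCA end of transfer RNAs, had 28.3 ± 1.73 and 31.0 ± 0.705. Nsun3, a transfer RNA methyltransferase, had 1.89 ± 0.120 and 2.79 ± 0.998 FPKM, with GFP-CCNB1IP1 replicate 1 at 3.94, and Trmt61b had 1.95 ± 0.471 and 2.59 ± 0.974. The groups also did not overlap for Rpusd4, Trnt1 and Nsun3. That made 3 of 20 (15%) for processing and 1 of 19 (5.26%) for stability, against 17.6% of all genes.

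Genes of mitochondrial DNA replication had 8 of 18 above 0 and a median of -0.004. Dguok and Tk2, kinases that supply deoxynucleotides inside mitochondria, had log2 fold changes of 0.27 (SE 0.070; limma, adjusted p = 0.272) and 0.19 (SE 0.080; limma, adjusted p = 0.427). Dguok had 24.9, 24.1 and 23.4 FPKM with GFP and 32.1, 28.4 and 27.4 with GFP-CCNB1IP1. Polg, the catalytic subunit of the DNA polymerase, had 16.8, 18.8 and 19.97 FPKM, then 15.7, 15.8 and 16.1, and the log2 fold change was -0.21 (SE 0.072; limma, adjusted p = 0.354). The groups did not overlap for these 3 genes. In the whole list they did not overlap for 4 of 18 (22.2%), against 17.6% of all genes. An unadjusted p under 0.05 was reached by 3 of 18 (16.7%), against 11.4% of all genes. Twnk, the replicative helicase, had 11.3 ± 0.575 and 10.8 ± 0.255 FPKM.

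Regulators of mitochondrial biogenesis had 4 of 8 tested genes above 0 and a median of -0.02, and 4 of the 12 were below the filter. Ppargc1a, the PGC-1alpha coactivator, was near 0 with at most 0.0973 FPKM. Nrf1, a transcription factor of nuclear respiratory genes, had 12.9 to 15.9 FPKM with GFP and 12.5 to 15.02 with GFP-CCNB1IP1. Gabpa, a subunit of a second such factor, had 16.3 ± 0.175 and 18.6 ± 1.29 (limma, adjusted p = 0.387), and Pprc1 had 21.9 ± 1.74 and 19.1 ± 1.86 (limma, adjusted p = 0.456).

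**Figure D5:**
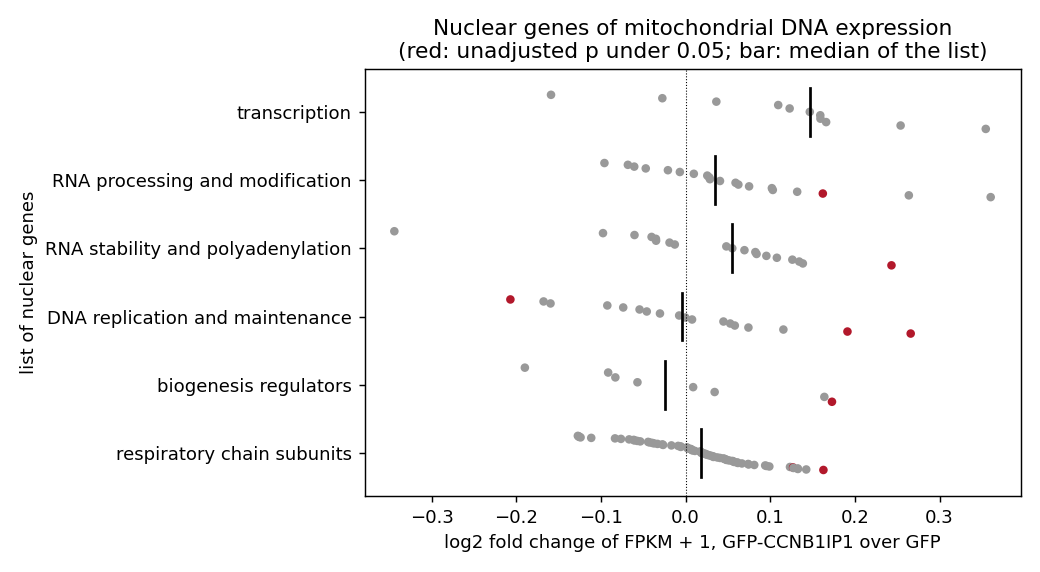
Log2 fold change of FPKM + 1, GFP-CCNB1IP1 over GFP, for the tested genes of 5 lists of nuclear genes of mitochondrial DNA expression and for 69 nuclear respiratory chain and ATP synthase subunits; red marks an unadjusted p under 0.05 and bars are list medians. The medians run from -0.02 for biogenesis regulators to 0.15 for transcription, and no gene was called.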

How the data were processed

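The authors deposited 1 table per library with FPKM per gene and the bounds of a confidence interval, per the file headers; the submitters' processing notes name HISAT2 and Cufflinks, with no version. The sources used here do not state the genome build, annotation release or use of strand, nor the treatment of nuclear copies of mitochondrial DNA, which could share reads with these genes. Deposited starts count from 0 and were shifted to count from 1. Rows of 1 identifier were summed (38 identifiers), giving 53492 genes. Log2(FPKM + 1) of the 13231 genes with a mean of at least 1 FPKM was tested in R 4.3.3 by limma 3.58.1, using the mean-variance trend, no block, no further scaling and Benjamini-Hochberg adjustment over all genes; the test was checked on simulated data. Shares and ratios were compared by exact two-sided permutation tests.

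Members and lists were chosen with earlier results of these data known. All mitochondrial messengers and ribosomal RNAs are named. Polrmt, Tfam, Twnk, Lrpprc, Ppargc1a and Nrf1 are always named, and the smallest p-values fill each nuclear list to 4. An implied number of fragments was (FPKM / standard error) squared, where the upper bound of the interval lies 2 standard errors over the FPKM; 51.4 to 54.8% of implied values from 0.5 to 8.5 lay within 0.05 of a whole number, so no count test was run. Alternatives were pseudocounts, filters, scalings, the replicate block, other limma settings and each library left out; leaving out mt-Atp8 and weighting by length were chosen after seeing the data. The replicate numbers share no stated culture.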

Additional observations from a re-analysis of the deposited data

How the results depend on the processing

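No mitochondrial gene and no nuclear gene of the 5 lists was called under any of the 18 alternatives, and the lowest adjusted p of a mitochondrial gene was 0.291 (limma). The count over all genes, 1, was 0 without a filter, at a pseudocount of 5, without loci under 300 bases, without the trend and with the replicate block, and 0 to 4 with a library left out. Same-numbered libraries did not deviate together (correlations across genes of 0.0226, -0.0093 and -0.0107). This check cannot exclude a pairing that moves few genes or moves genes only slightly. Of the 15 genes 8 reversed under no alternative, though mt-Atp8, mt-Cytb and mt-Nd4l among them came to 0 with quantile normalization. With quantile normalization the log2 fold change was 0.0139 for mt-Atp6, 0.0591 for mt-Nd4 and -0.0325 for mt-Nd1, and exactly 0 for mt-Atp8, mt-Cytb, mt-Nd4l and mt-Nd2, which held 1 rank in all libraries; mt-Nd2 was at -0.00336 as TPM and -0.00146 with the other genes set to an equal sum. With a library left out the ranges were -0.0974 to 0.0365 for mt-Co2, -0.0717 to 0.0259 for mt-Atp6, -0.0982 to 0.0375 for mt-Nd4, -0.0732 to 0.124 for mt-Nd2, -0.0381 to 0.109 for mt-Nd1, -0.133 to 0.0774 for mt-Nd6 and -0.0301 to 0.148 for mt-Rnr2, and, with no reversal, 0.0481 to 0.323 for mt-Atp8, 0.0349 to 0.260 for mt-Nd3, 0.0488 to 0.243 for mt-Rnr1, -0.192 to -0.0274 for mt-Nd5, -0.186 to -0.0655 for mt-Co3, -0.113 to -0.0246 for mt-Nd4l, -0.114 to -0.0438 for mt-Co1 and -0.163 to -0.0995 for mt-Cytb.

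The difference in share, 0.0994 percentage points, was -0.493 among genes of at least 300 bases and -0.526 without mt-Atp8, both of which leave out that gene, and -0.663 to 0.994 with a library left out. For messengers these were -0.500, -0.532 and -0.666 to 0.985, and for ribosomal RNA -0.000283 to 0.00928 with a library left out. The log2 ratio difference of ribosomal to messenger RNA, 0.0717, was 0.0118 to 0.103 with a library left out. That of mt-Nd6 to the other messengers was 0.0278 without mt-Atp8 and -0.123 to 0.0319 with a library left out. That of messengers to nuclear subunits was -0.0409 with geometric means, -0.0627 without mt-Atp8 and -0.0602 to 0.134 with a library left out. None had an exact p that could pass. The cause was not tested. The effect of depth, lowest in GFP-CCNB1IP1 replicate 2 at 0.743, was not tested.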

Other observations

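The deposited confidence intervals fell into 2 kinds among the 15 mitochondrial genes above 0. For the 10 whose loci overlap a neighbouring locus by at least 1 base (mt-Nd1, mt-Nd2, mt-Co1, mt-Atp8, mt-Atp6, mt-Co3, mt-Nd4l, mt-Nd4, mt-Nd5 and mt-Nd6), the implied relative standard error was 2.07 to 2.37% in every library, whatever the level. For the 5 that overlap none (mt-Rnr1, mt-Rnr2, mt-Co2, mt-Nd3 and mt-Cytb) it ran from 0.172 to 2.08% and was smallest for the most abundant, mt-Cytb. mt-Atp8, at 204 bases, thus had 1874 to 2071 implied fragments and mt-Co1, at 1545 bases, had 2314 to 2328. The intervals of these 10 genes were not read as counts.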
